A study of Mus musculus with 6 samples.

Results

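The respiratory chain of the inner mitochondrial membrane consists of complexes I to IV, which pass electrons from NADH and succinate to oxygen and, at complexes I, III and IV, pump protons, while complex V (ATP synthase) uses the returning protons to make ATP. Most subunits are encoded in the nucleus and imported, a small core is encoded by the mitochondrial genome, and assembly factors help to build the complexes without staying in them. Group 2 innate lymphoid cells (ILC2s) are tissue lymphocytes that release type 2 cytokines, and respiration is a known part of their energy supply.

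The genes described here are the nuclear-encoded subunits and assembly factors of the respiratory chain. They were taken from the gene symbols alone, as all rows that begin with Nduf, Sdhaf, Uqcr, Atp5 or Cox followed by a digit from 4 to 8, the 4 genes Sdha to Sdhd, and Cyc1 and Cycs. This gave 107 of the 25865 genes in the table: 77 subunits, 12 assembly factors (Ndufaf1 to Ndufaf8 and Sdhaf1 to Sdhaf4), 8 copies of subunit genes such as pseudogenes, 8 complex IV isoforms of restricted expression, the electron carrier gene Cycs and the supercomplex factor gene Cox7a2l. The cells were ILC2s sorted from the large intestine of C57BL/6 mice. All cultures ran for 5 days with 4 cytokines at 10 ng/mL (IL-33, IL-25, IL-7 and IL-2) before the adenosine analog toyocamycin was added for 16 h, or its vehicle for the group called Control, and each group has 3 samples. The dose, the vehicle's composition, and the mice's sex and age were not given in the sources used here. Whether replicates were separate cultures or mice is not stated, so the p-values speak of the spread among these 6 samples, and that spread may be technical.

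Levels are normalised read counts, that is, reads per gene divided by 1 size factor for each sample. The 6 libraries held 22.3 M to 36.7 M reads, and 3 reads, the smallest level treated as detectable, correspond to 2.54 to 3.96 normalised reads. The ILC2 markers summed to 364618 to 373482 normalised reads in Control and 284752 to 310445 with toyocamycin, and none of the 8 was at 0. All 8 passed. Over all genes tested 65.9% passed (32.8% higher and 33.1% lower). Among genes with a mean of at least 100, as all 8 have, 86.3% passed, so passing does not set these markers apart. Rora (mean 1414 in Control, 18477 with toyocamycin), Gata3 (32470 and 65663) and Il1rl1 (104886 and 125996) rose. Il13 (88695 and 12757), Il7r (29471 and 9876), Klrg1 (10022 and 4152), Il5 (101461 and 59663) and Il17rb (400.5 and 329.4) fell. The calls of Il1rl1 and Il17rb did not hold under each scaling. The T cell markers summed to 190.4 to 216.8 and 194.3 to 245.6, the macrophage and dendritic cell markers to 876.8 to 1290 and 1065 to 1547, and the epithelial markers, with Krt20 at 0, to 190.4 to 248.3 and 196.8 to 217.3. The 5 B cell markers summed to 361.5 to 464.3 in Control and 182.1 to 212.6 with toyocamycin, and the 6 fibroblast and endothelial markers to 1271 to 1468 and 712.3 to 934.9. The sums of the lists for other cells rest mostly on few genes, and members of a list did not all move alike. Of the 7 T cell markers, Cd3g rose (mean 148.7 in Control, 198.7 with toyocamycin; not with equal totals, log2 0.06, or TMM factors), Cd3e (35.17 and 6.128) and Cd3d (6.474 and 0.8804) fell, and 4 did not pass. Cd79b (390.5 and 183.7) was the 1 B cell marker that fell, with 4 not passed. Pecam1 (1012 and 565) and Col1a2 (115.5 and 58.06; not under quantile normalization, log2 -0.44) fell among the fibroblast and endothelial markers, with 4 not passed. Of the 6 macrophage and dendritic cell markers Cd68 rose (448.4 and 678.7) and 5 did not pass, and the 5 tested epithelial markers had adjusted p-values of 0.149 to 0.829 in limma. The part of these other cells in the results below was not tested, and in bulk samples fewer cells of a type and less RNA per cell cannot be told apart.

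The upstream sequences of 4 genes described below are shown. Sdha and Sdhb are subunits of complex II that fell. Ndufaf3 and Ndufaf4 are complex I assembly factors, of which Ndufaf3 fell and Ndufaf4 rose. Whether the sequences bear on these changes was not tested. The stretches are, on build GRCm38.p6, chr13:74350281-74350308 on the minus strand for Sdha, chr4:140961021-140961202 on the plus strand for Sdhb, chr9:108567437-108567686 on the minus strand for Ndufaf3 and chr4:24897833-24898082 on the plus strand for Ndufaf4. Each comes from RefSeq, reads 5′ to 3′ towards the gene and ends before its RefSeq and GENCODE starts. The Sdha stretch is the gap of 28 bases between Sdha and its divergent neighbour Ccdc127, and the Ndufaf3 stretch overlaps the long noncoding RNA gene 4833445I07Rik on the other strand. Capitals mark matches, on either strand, to the NRF1 consensus or to the letters CCAATC, the core of the NF-Y element.
Sdha: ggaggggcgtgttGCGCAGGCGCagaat
Sdhb: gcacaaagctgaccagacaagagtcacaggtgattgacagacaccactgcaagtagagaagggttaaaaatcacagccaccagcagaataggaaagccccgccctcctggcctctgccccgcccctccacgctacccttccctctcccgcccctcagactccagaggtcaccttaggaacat
Ndufaf3: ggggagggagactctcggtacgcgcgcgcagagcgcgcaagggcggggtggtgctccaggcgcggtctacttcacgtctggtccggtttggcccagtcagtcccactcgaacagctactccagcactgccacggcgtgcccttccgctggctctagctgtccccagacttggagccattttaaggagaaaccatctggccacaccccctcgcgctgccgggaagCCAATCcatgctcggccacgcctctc
Ndufaf4: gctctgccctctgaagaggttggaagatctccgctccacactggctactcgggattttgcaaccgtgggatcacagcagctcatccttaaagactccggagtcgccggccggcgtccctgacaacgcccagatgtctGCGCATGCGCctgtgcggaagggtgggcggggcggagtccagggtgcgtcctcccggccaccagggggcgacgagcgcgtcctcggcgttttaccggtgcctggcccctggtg
The Sdha stretch holds 1 NRF1 match that begins 55 bases before the RefSeq start, and the full Sdha window holds 3. The Ndufaf4 stretch holds 1 that begins 113 bases before the start. The Ndufaf3 stretch holds 1 NF-Y match, 26 bases before the start, and the Sdhb stretch holds no match to any of the 5 motifs searched, although 1 GABPA match lies further on in its window.

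The same motifs were counted in the RefSeq windows of 300 bases that were available for 82 of these genes (87 windows) and, as background, in 32851 windows of all genes. NRF1 and GABPA are transcription factors known to act on many respiratory chain genes. The NRF1 consensus was in 22 of the 87 windows (25.3%) and in 4.6% of all windows. The GABPA letters CCGGAAG were likewise in 25.3%, against 8.9% of all windows. For YY1 (AAGATGGCG) the shares were 9.2% and 1.4%, for NF-Y (CCAATC) 23.0% and 16.1%, and for the TATA box letters TATAAA 11.5% and 13.6%. The NRF1 consensus occurred in 9 of the 30 windows of genes that rose, 4 of the 22 of genes that fell and 9 of the 33 of genes that did not pass the test. A match is a description of letters only and is not a site of binding.

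With toyocamycin the respiratory chain genes did not move as a block. Of 101 genes with enough reads to test, 35 rose, 24 fell and 42 did not pass, which is 58.4% called. Over all 16223 genes tested the share was 65.9%, with 32.8% higher and 33.1% lower, so the share among the respiratory chain genes was under the background. Among genes with a mean of at least 100 normalised reads the gap was wider, with 67.6% of the 74 respiratory chain genes called (30 higher and 20 lower) and 86.3% of all 9914. Their median log2 change was 0.06, against -0.03 for all genes. The groups did not overlap for 69 of the 101 (41 higher and 28 lower), and for 69.1% of all genes (34.2% higher and 34.9% lower). Their changes were smaller than over all genes. The median size, without sign, was 0.45 on the log2 scale against 0.87 for all genes, and 11 (10.9%) passed with a size of at least 1, against 37.5%. Of these 11, 5 were higher and 6 lower (17.0% and 20.5% of all genes). At a mean of at least 100, 6.76% of the respiratory chain genes and 41.6% of all genes passed with that size.

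The split into higher and lower depends on the scaling, because the deposited totals are larger with toyocamycin (29.1 M to 31.1 M normalised reads, against 23.1 M to 23.7 M in Control). Scaling the samples to equal totals moved the median log2 change of all genes from -0.03 to -0.35. The respiratory chain genes then divided into 17 higher and 44 lower, against 24.9% higher and 42.5% lower of all genes. Under the deposited scaling, equal totals, TMM factors and quantile normalization alike, 15 kept a higher and 18 a lower call (24.1% and 28.1% of all genes).

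Without the filter on the mean, which brings in many genes near 0, Atp5k, Cox6a1, Ndufaf2, Ndufc1 and Uqcrc1 lost the calls given below, with the same changes.

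**Figure D1:**
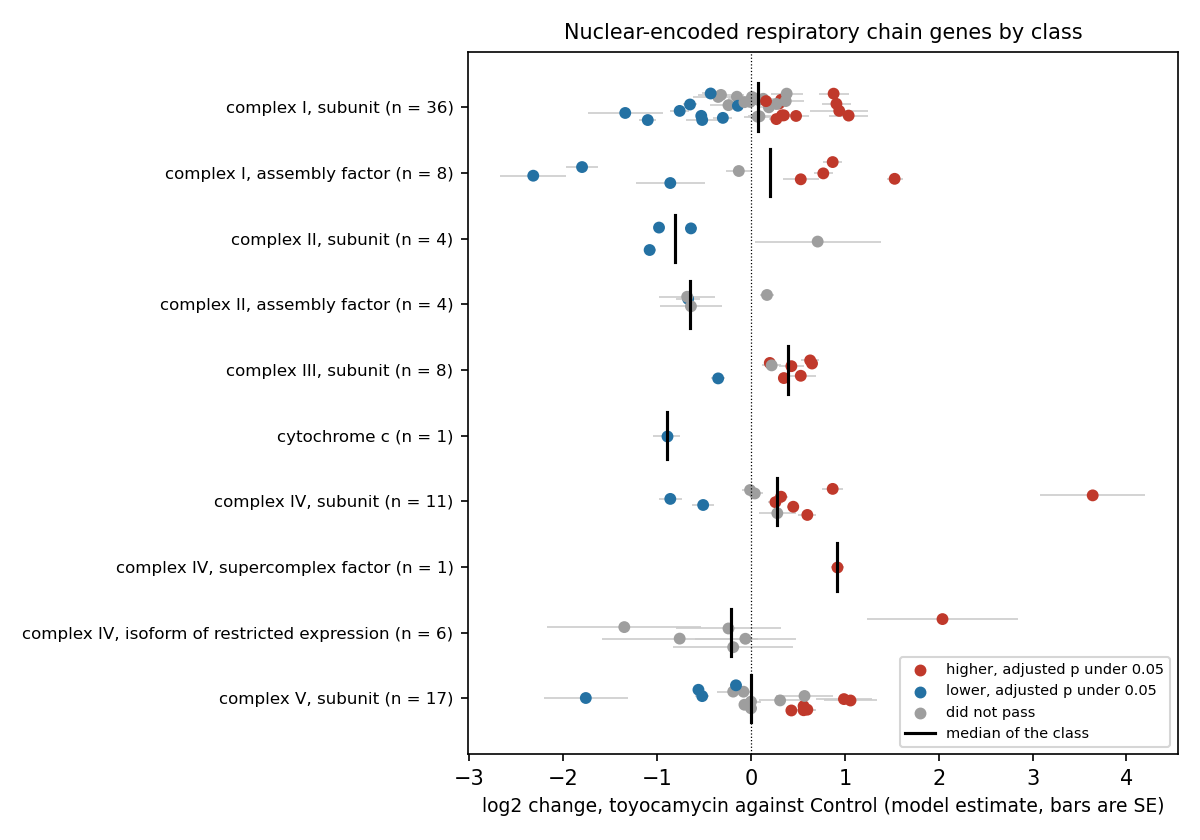
Log2 change of toyocamycin against Control (x axis, model estimate with its standard error) for each tested gene, in rows by complex and role, with the number tested in parentheses and the class median as a black bar. Complex II subunits lie to the left of 0 except Sdhd, whose error bar reaches close to 0, complex III subunits lie to the right except Cyc1, and complex I assembly factors spread from -2.32 to 1.53. The 4 tested copies of complex I genes and the 1 tested copy of a complex V gene are not drawn.

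Complex II (succinate dehydrogenase) was lower with toyocamycin. It oxidises succinate in the citric acid cycle and passes the electrons to ubiquinone, and it is the respiratory complex with no mitochondrially encoded subunit. Sdha, Sdhb and Sdhc fell, and Sdhd drew few reads in either group. Sdha (chr13:74322254-74350280, minus strand, mm10), the flavoprotein that binds succinate, was at 4972, 5043 and 5214 normalised reads in Control and at 2472, 2567 and 2686 with toyocamycin. It fell by 49.3%, a log2 change of -0.98 (SE 0.054, adjusted p = 7.58e-13). Sdhb (chr4:140961203-140979193, plus strand), the iron-sulphur subunit, was at 2692, 2528 and 2818 in Control and at 1191, 1302 and 1299 with toyocamycin. Every toyocamycin sample lay far under every Control sample in both genes. Sdhb fell by 52.8% (log2 -1.08, SE 0.065, adjusted p = 2.80e-12). Sdhc, a membrane anchor, was at 1869, 1968 and 1882 in Control and at 1174, 1222 and 1276 with toyocamycin, a log2 change of -0.64 (adjusted p = 1.35e-08). Under every scaling, correction and test tried, and without each library in turn, Sdha, Sdhb and Sdhc kept a lower call.

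Sdhd, the other membrane anchor, drew 9 reads over the 3 Control samples and 14 over the 3 toyocamycin samples, near the detection floor, so no ratio is given (adjusted p = 0.376). All 1182 of its transcript's 50-base words occur in no other annotated gene. How the authors counted reads is not known here, so whether reads of Sdhd were left out in counting was not tested, and its low value is not read as low expression. Per kilobase of transcript, its Control level was 2.16 normalised reads, against 1750 for Sdha, 2346 for Sdhb and 601 for Sdhc. The summed level of the 4 subunits, which rests on Sdha, Sdhb and Sdhc, was 9664 ± 218 (SD, n = 3) in Control and 5068 ± 212 (SD, n = 3) with toyocamycin, a ratio of 0.524.

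The 4 assembly factors of complex II did not share a clear change. Sdhaf1, which aids insertion of the iron-sulphur clusters, was at 309.9, 344 and 344 in Control and at 211.3, 197.3 and 216.1 with toyocamycin, and fell (log2 -0.67, SE 0.13, adjusted p = 9.14e-05). Of its transcript's 50-base words only 31.0% occur in no other annotated gene, the rest being shared with E130208F15Rik, so reads of the 2 genes may have been mixed. The call was lost under quantile normalization (log2 -0.22). Sdhaf2, the factor for flavin attachment to Sdha, was at 998.5, 1003 and 974.2 in Control and at 1100, 1202 and 1047 with toyocamycin, and did not pass (log2 0.17, adjusted p = 0.0519). Every toyocamycin sample lay slightly above every Control sample in Sdhaf2, while its client Sdha fell. Sdhaf2 passed as higher with a minimum mean of 10 (0.17), with a pseudocount of 8 (0.17), under quantile normalization (0.15) and without toyocamycin replicate 3 (0.21), and as lower with equal totals (-0.18). Sdhaf3 was at 63.42, 61.43 and 64.07 in Control and 42.26, 59.28 and 25.5 with toyocamycin (log2 -0.64, adjusted p = 0.0928). Sdhaf4 was at 59.8, 70.21 and 78.99, and 43.58, 56.74 and 31.57 (log2 -0.68, adjusted p = 0.0532). In both genes every toyocamycin sample was under every Control sample, but the spread with toyocamycin was wide and neither passed. Both passed as lower with equal totals, with the length and GC correction and without toyocamycin replicate 2 (log2 -0.92 and -0.88), and Sdhaf4 also with a minimum mean of 10 (-0.68), a pseudocount of 8 (-0.60), TMM factors (-0.72) and in edgeR (-0.69).

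**Figure D2:**
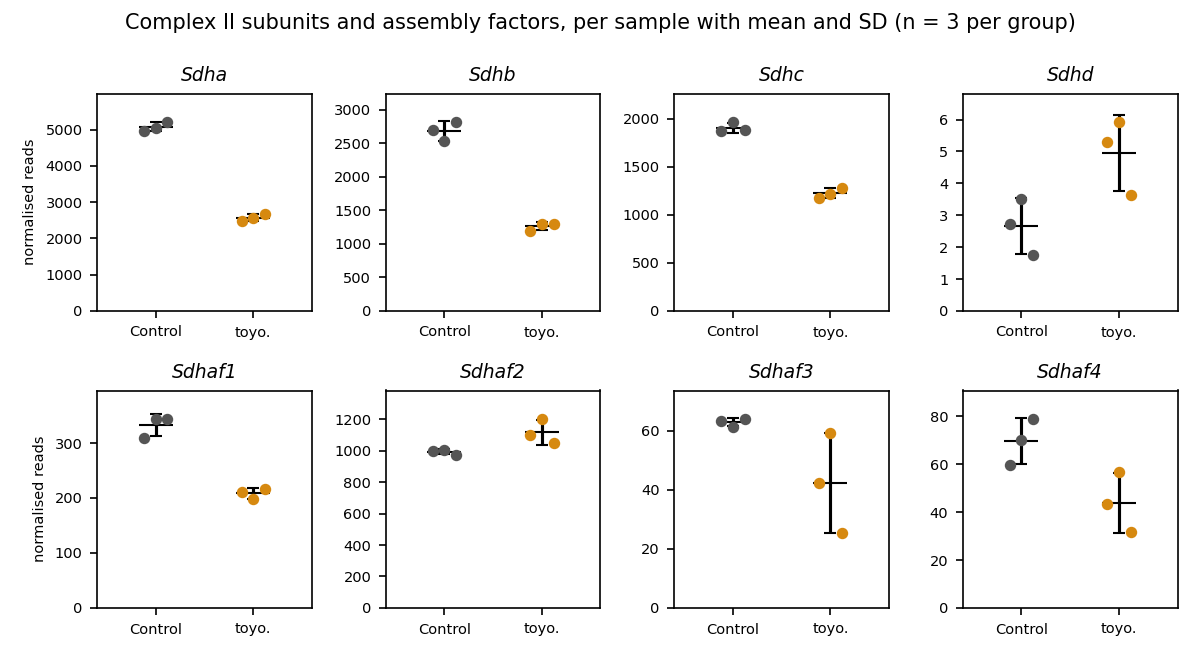
Normalised reads (y axis, from 0) of the 4 subunits and 4 assembly factors of complex II in each sample (points), with the group mean and SD, for Control and toyocamycin (toyo.), n = 3 each. Sdha, Sdhb and Sdhc lie lower in every toyocamycin sample, while Sdhd stays under 6 normalised reads in all samples.

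Complex I (NADH dehydrogenase) is the largest complex and takes the electrons of NADH. Among its 36 nuclear subunits 11 rose, 9 fell and 16 did not pass, with a median log2 change of 0.07. That is 55.6% called, against 65.9% of all genes. The matrix arm (16 genes) had 4 higher and 4 lower and the membrane arm (19 genes) 7 higher and 5 lower. With equal totals, the 29 accessory subunits divided into 3 higher and 10 lower, against 24.9% higher and 42.5% lower of all genes.

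The core subunits carry the flavin and the iron-sulphur clusters or line the quinone site. Among them Ndufs3, in the matrix arm, was at 830.9, 838.1 and 858.4 in Control and at 393.5, 370.9 and 415.3 with toyocamycin (log2 -1.10, SE 0.089, adjusted p = 4.63e-10). It shares transcript sequence with Kbtbd4 and 2 pseudogenes, and 60.3% of its 50-base words are its own. Ndufs8, an iron-sulphur subunit of the same arm, was at 686.8, 723.2 and 746.9 in Control and at 492.6, 414.1 and 375.2 with toyocamycin (log2 -0.76, SE 0.10, adjusted p = 1.27e-06). Ndufv1, the flavoprotein at the NADH site, was at 1582, 1513 and 1560 and then at 946.9, 946.8 and 1084 (log2 -0.65, adjusted p = 6.56e-08). The groups did not overlap in these 3 genes, and each kept its lower call under every alternative. Ndufs1 changed little (log2 -0.14, adjusted p = 0.0453), and its call was lost without Control replicate 1 (-0.15), 2 (-0.14) or 3 (-0.13), without toyocamycin replicate 1 or 3 (-0.12 each) and in DESeq2 (-0.13). Ndufs7 (log2 -0.01) and Ndufv2 (log2 -0.07) did not pass, although both were called lower with equal totals (-0.36 and -0.42).

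Among the accessory subunits the largest rises were in Ndufa5 and Ndufb4. Ndufa5, in the matrix arm, was at 77.92, 66.7 and 93.91 in Control and at 178.3, 157.5 and 153 with toyocamycin (log2 1.04, SE 0.21, adjusted p = 1.38e-04). Ndufb4, in the membrane arm, was at 26.28, 31.59 and 33.35 and then at 56.79, 58.44 and 61.92 (log2 0.94, SE 0.31, adjusted p = 0.0121), a call lost with equal totals (0.60). The groups did not overlap in either gene. Of the Ndufb4 transcript's 50-base words 63.0% occur in no other annotated gene, and 3 pseudogenes share the rest, so its level is uncertain. The largest falls were in the membrane arm. Ndufc1 was at 50.74, 47.39 and 46.52 in Control and at 13.21, 32.18 and 14.57 with toyocamycin (log2 -1.34, SE 0.40, adjusted p = 0.0056), a call lost under quantile normalization (-1.01). Ndufa10 was at 3718, 3546 and 3671 and then at 2538, 2527 and 2494 (log2 -0.53, SE 0.053, adjusted p = 1.38e-08). Ndufa10 was among the most evenly measured genes, with an SD of 89 in Control and 23 with toyocamycin (n = 3 each).

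Of the 8 complex I assembly factors 4 rose, 3 fell and Ndufaf7 did not pass. Both directions were also common over all genes, of which 32.8% rose and 33.1% fell. Ndufaf4 (chr4:24898083-24905001, plus strand), which with Ndufaf3 is known to act on the quinone module early in assembly, rose most. It was at 394.1, 416 and 422.2 in Control and at 1179, 1270 and 1113 with toyocamycin, 2.89-fold higher (log2 1.53, SE 0.085, adjusted p = 7.88e-13). Ndufaf3 (chr9:108565537-108567434, minus strand) was at 271.8, 280 and 329.1 in Control and at 80.56, 93.16 and 77.71 with toyocamycin, and fell by 71.5% (log2 -1.80, SE 0.17, adjusted p = 6.11e-09). These 2 partners thus moved apart, with no overlap between groups in either. In each of the scalings, corrections and tests tried, and without each library, Ndufaf4 stayed higher and Ndufaf3 lower.

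Ndufaf8, known as a partner of Ndufaf5, was at 84.26, 98.29 and 93.03 in Control and at 26.41, 18.63 and 10.93 with toyocamycin (log2 -2.32, SE 0.35, adjusted p = 6.02e-06). Ndufaf5, a methyltransferase-like enzyme that modifies Ndufs7, was at 348.8, 314.2 and 358.1 and then at 620.7, 627.6 and 613.2 (log2 0.87, SE 0.099, adjusted p = 1.00e-07). Here too a gene that fell stood beside a partner that rose. Ndufaf1, which acts on the membrane arm, was at 368.8, 372.1 and 388.8 and then at 589, 713.9 and 633.8 (log2 0.77, SE 0.10, adjusted p = 6.29e-07). Ndufaf6 was at 113.3, 106.2 and 110.6 and then at 165.1, 186.3 and 129.9 (log2 0.53, SE 0.19, adjusted p = 0.0204). The Ndufaf6 call was lost with equal totals (0.18) and without Control replicate 2 (0.50) or toyocamycin replicate 1 (0.50) or 2 (0.41).

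Ndufaf2 was at 38.05, 68.46 and 56.17 in Control and at 18.49, 32.18 and 38.85 with toyocamycin, so the groups overlapped (log2 -0.86, SE 0.37, adjusted p = 0.0453). Its call was lost under quantile normalization (-0.46) and in DESeq2 (-0.85), and without Control replicate 2 (-0.68) or 3 (-0.82) or toyocamycin replicate 1 (-0.56) or 2 (-0.95). Ndufaf7, a methyltransferase, was at 459.4, 319.5 and 423 and then at 364.5, 413.3 and 316.9, with overlapping groups (log2 -0.13, adjusted p = 0.437). Ndufaf7 passed as lower with equal totals (-0.47).

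**Figure D3:**
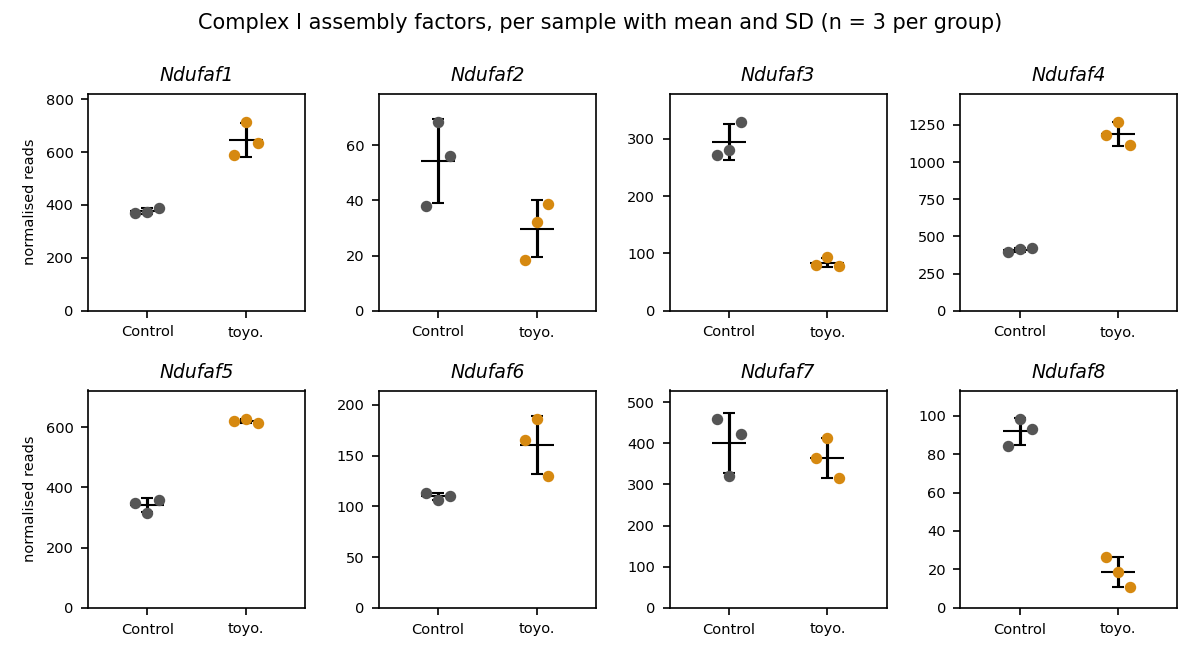
Normalised reads (y axis, from 0) of the 8 complex I assembly factor genes in each sample (points), with the group mean and SD, for Control and toyocamycin (toyo.), n = 3 each. Ndufaf1, Ndufaf4, Ndufaf5 and Ndufaf6 lie higher with toyocamycin, Ndufaf3 and Ndufaf8 lie lower, and the groups overlap in Ndufaf2 and Ndufaf7.

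Complex III (cytochrome bc1) passes electrons from ubiquinol to cytochrome c. Of its 9 nuclear subunits 6 rose, 1 fell, 1 did not pass and Uqcr11 was listed at 0 in every sample. Of the 8 tested, 87.5% were called, against 65.9% of all genes and 86.3% of those with a mean of at least 100. Uqcrc2, a core protein, was at 3083, 3506 and 3347 in Control and at 5181, 5315 and 5130 with toyocamycin (log2 0.65, SE 0.056, adjusted p = 1.09e-09). Uqcrh, the hinge protein, was at 631.5, 605.6 and 732.9 and then at 904.6, 991.7 and 1161 (log2 0.63, SE 0.096, adjusted p = 6.05e-06). The groups did not overlap in these genes, and both kept a higher call under each scaling. Uqcrc2 shares transcript sequence with Pdzd9, 75.2% of its 50-base words being its own. The other rises were smaller. Uqcrb rose by 0.53 on the log2 scale, Uqcr10 by 0.43, Uqcrfs1 (the Rieske iron-sulphur protein) by 0.35 and Uqcrc1 by 0.20, while Uqcrq did not pass (0.22, adjusted p = 0.0685), although it did under quantile normalization (0.45), with the length and GC correction (0.38) and without toyocamycin replicate 3 (0.28). With equal totals the calls of Uqcrb (0.19), Uqcr10 (0.09) and Uqcrfs1 (0.002) were lost and Uqcrc1 was lower (-0.15). Uqcrc1 was also lower under quantile normalization (-0.27), where Uqcrfs1 stood at -0.0046, and the length and GC correction ended the Uqcrb call (0.30). Of the Uqcrb transcript's 50-base words 56.6% are its own, and 4 of the genes that share the rest are pseudogenes.

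Cyc1, the cytochrome c1 subunit that hands electrons to cytochrome c, went against the rest of its complex. It was at 1643, 1751 and 1956 in Control and at 1336, 1382 and 1464 with toyocamycin (log2 -0.35, SE 0.071, adjusted p = 1.78e-04). The call was lost with the length and GC correction (-0.01). Cycs, which encodes somatic cytochrome c itself, was at 338.9, 371.2 and 442.3 in Control and at 188.8, 237.1 and 190.6 with toyocamycin, and also fell, by 46.5% (log2 -0.90, SE 0.14, adjusted p = 7.77e-06). Of its 50-base words 71.5% occur in no other annotated gene. Both genes of the cytochrome c step were thus lower in every toyocamycin sample than in any Control sample.

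Complex IV (cytochrome c oxidase) reduces oxygen to water. Of its 11 nuclear subunits in general use, 6 rose, 2 fell and 3 did not pass (median log2 0.28). That is 72.7% called, against 65.9% of all genes and 86.3% of those with a mean of at least 100. Ndufa4, named for complex I but a complex IV subunit, was at 312.6, 279.1 and 284.4 in Control and at 508.4, 512.4 and 579.2 with toyocamycin (log2 0.87, SE 0.11, adjusted p = 3.92e-07). Cox4i1, the subunit with the highest Control level per kilobase (3080), was at 2323, 2151 and 2594 and then at 3266, 3283 and 3085 (log2 0.45, SE 0.065, adjusted p = 3.01e-06). The groups were apart in both, but the Cox4i1 call was lost with equal totals (0.10) and under quantile normalization (0.05). Cox8a (log2 0.32) and Cox6a1 (log2 0.26) also rose, and both changed sign with equal totals (-0.03 and -0.08). Cox6b1 did not pass (log2 0.04, adjusted p = 0.732).

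Cox5b and Cox7b were the subunits that fell. Cox5b, which binds zinc, was at 453.9, 409 and 484.5 in Control and at 276, 243.1 and 224.6 with toyocamycin (log2 -0.86, SE 0.12, adjusted p = 2.38e-06). It shares transcript sequence with Gm11273, 74.1% of its 50-base words being its own. Cox7b was at 389.6, 417.8 and 491.5 and then at 311.7, 291.3 and 307.2 (log2 -0.51, SE 0.12, adjusted p = 6.60e-04), and its call was lost under quantile normalization (-0.15). No sample of either group entered the range of the other in these genes.

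The complex IV paralogs spanned a wide range of levels. Cox7a2 drew 2, 2 and 1 reads in the Control samples and 21, 37 and 24 with toyocamycin. Its normalised count was 19.8-fold higher (95% counting interval 8.27 to 63.5, log2 3.64, SE 0.56, adjusted p = 7.40e-06), the largest rise among the respiratory chain genes, but from a Control level under the detection floor in each library. As for Sdhd, its 50-base words are all its own, and whether reads were left out in counting was not tested, so neither its level nor the size of the rise can be read as that of the transcript. Its relative Cox7a2l, a factor that joins complexes III and IV into supercomplexes, was at 1732, 2001 and 1964 in Control and at 3748, 3737 and 3306 with toyocamycin (log2 0.92, SE 0.067, adjusted p = 7.58e-11). Per kilobase, Control levels were 2.25 for Cox7a2 and 1765 for Cox7a2l, so the 2 rises began from very different measured levels. Cox7a1, the muscle isoform, had means of 6.257 and 4.791 (log2 -0.19, adjusted p = 0.812).

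The other isoforms of restricted expression stayed low. Cox8b drew 1 read in all Control samples together and 12 with toyocamycin, a ratio of 14.7 with a 95% counting interval of 2.17 to 628 (log2 2.04, adjusted p = 0.0303). That call was lost with a pseudocount of 8 (0.57), in DESeq2 (3.81) and without Control replicate 2 or 3 (1.88 each) or toyocamycin replicate 3 (1.69). Cox4i2 (mean 11.83 in Control), Cox6a2 (12.46), Cox6b2 (19.77) and Ndufa4l2 (5.38) did not pass, and their groups overlapped. Without toyocamycin replicate 3, Cox6a2 passed as lower (-2.31). Cox7b2 and Cox8c were listed at 0 in every sample.

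Complex V makes ATP in its F1 head, which is turned by the c ring of the membrane part, Fo. Over its 17 subunits 6 rose, 4 fell and 7 did not pass (median 0.00), and all 5 F1 subunits passed, 3 higher and 2 lower. Of the 17, 58.8% were called, against 65.9% of all genes and 86.3% of those with a mean of at least 100. Atp5b, the catalytic beta subunit and the respiratory chain gene with the highest Control level per kilobase (11862), was at 22036, 22722 and 23422 in Control and at 32696, 34651 and 33200 with toyocamycin (log2 0.56, SE 0.050, adjusted p = 1.94e-09). Atp5a1, the alpha subunit, was at 12910, 13109 and 13707 and then at 17496, 18432 and 17765 (log2 0.43, SE 0.049, adjusted p = 7.36e-08). Atp5e, the epsilon subunit, was at 209.3, 198.3 and 220.3 and then at 327.5, 320.1 and 278.1 (log2 0.56, adjusted p = 9.35e-04). These rises depended on the scaling: under quantile normalization Atp5b was at 0.03 and Atp5a1 at -0.05, and with equal totals the Atp5e call was lost (0.21).

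The gamma and delta subunits of the F1 central stalk fell. Atp5c1 (gamma), the shaft that turns inside the head, was at 4374, 4223 and 4789 in Control and at 3036, 3062 and 2998 with toyocamycin (log2 -0.56, SE 0.057, adjusted p = 1.70e-08), and kept its call under every alternative. Atp5d (delta) was at 1498, 1480 and 1697 and then at 1128, 1073 and 1045 (log2 -0.52, SE 0.072, adjusted p = 1.37e-06), and lost its call with the length and GC correction (-0.12). The alpha and beta subunits were thus higher and the gamma and delta subunits lower in every toyocamycin sample under the deposited scaling.

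**Figure D4:**
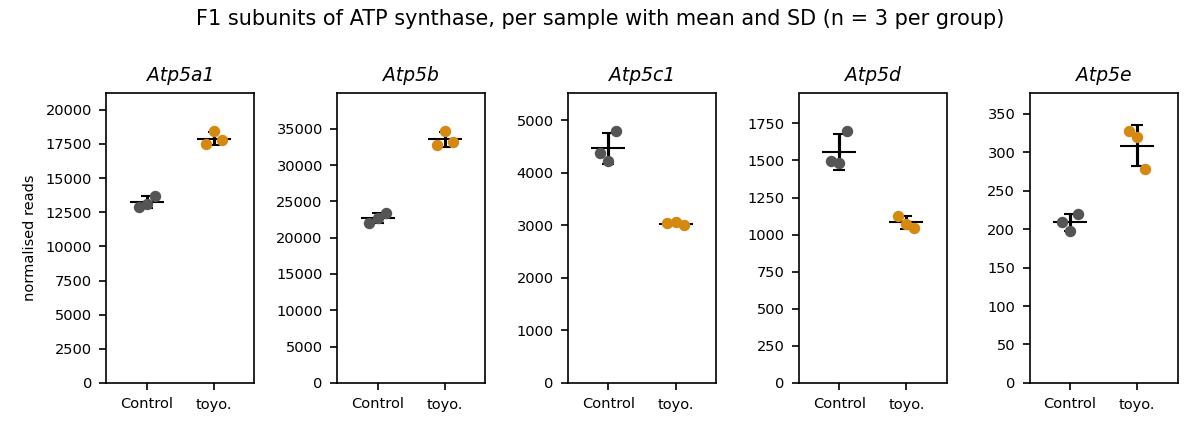
Normalised reads (y axis, from 0) of the 5 F1 subunit genes of ATP synthase in each sample (points), with the group mean and SD, for Control and toyocamycin (toyo.), n = 3 each. Atp5a1, Atp5b and Atp5e lie higher and Atp5c1 and Atp5d lower with toyocamycin, with no overlap between groups in any of the 5.

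In the membrane part and peripheral stalk, 3 of 12 genes rose, 2 fell and 7 did not pass. That is 41.7% called, against 65.9% of all genes. Atp5k (subunit e) was at 40.77, 73.72 and 67.58 in Control and at 7.924, 33.03 and 17 with toyocamycin (log2 -1.76, SE 0.45, adjusted p = 0.00156). Atp5l (subunit g) was at 43.49, 51.78 and 34.23 and then at 87.16, 77.92 and 106.9 (log2 1.06, SE 0.28, adjusted p = 0.00206). Subunits e and g sit side by side and are known for joining ATP synthase into dimers. Only 15.2% of the Atp5l transcript's 50-base words occur in no other annotated gene, and 12 of the genes that share the rest are pseudogenes, so its level is uncertain.

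The c ring is built from identical mature proteins made by the genes Atp5g1, Atp5g2 and Atp5g3. Atp5g3 was at 1545, 1554 and 1698 in Control and at 1607, 1574 and 1617 with toyocamycin (log2 0.00, SE 0.064, adjusted p = 0.986). Atp5g1 was at 77.02, 78.11 and 81.62 and then at 92.44, 94.85 and 108.1 (log2 0.31, adjusted p = 0.229), and passed under quantile normalization (0.86) and without the filter on the mean. Atp5g2 was at 38.05, 28.96 and 43.01 and then at 62.07, 89.77 and 69.21 and rose (log2 0.99, SE 0.30, adjusted p = 0.00675), but 12.6% of its 50-base words are its own and its call was lost with equal totals (0.65). Per kilobase, the Control levels were 2212 for Atp5g3, 50.2 for Atp5g2 and 16.7 for Atp5g1. Under the deposited scaling the gene with the highest level of the 3 was thus the one whose mean stayed nearest to Control. With equal totals Atp5g3 was called lower (-0.35) and Atp5g1 was nearest to Control (-0.03).

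Atpif1, the inhibitor of ATP synthase, is now also known as Atp5if1 but carries its older symbol in the table and so falls outside the symbol rule. Chosen after its values were seen, it was at 384.2, 348.4 and 377.4 in Control and at 103, 99.94 and 100.8 with toyocamycin (log2 -1.86, SE 0.15, adjusted p = 3.18e-10). All 3 toyocamycin samples lay within a narrow band far under Control, and the call held under each alternative.

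Summed over the nuclear subunits of each complex, levels divided by the Control mean separated complex II from the others. The ratio of toyocamycin to Control was 0.953 for complex I, 0.524 for complex II, 1.26 for complex III, 1.20 for complex IV and 1.26 for complex V. With equal totals the same ratios were 0.748, 0.412, 0.990, 0.942 and 0.987. Complex II had the lowest ratio and complex I the next lowest under both scalings. Complexes III, IV and V lay above Control with the deposited scaling and slightly under it with equal totals. These sums have no test, and they weigh genes with many reads, such as Atp5b in complex V.

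**Figure D5:**
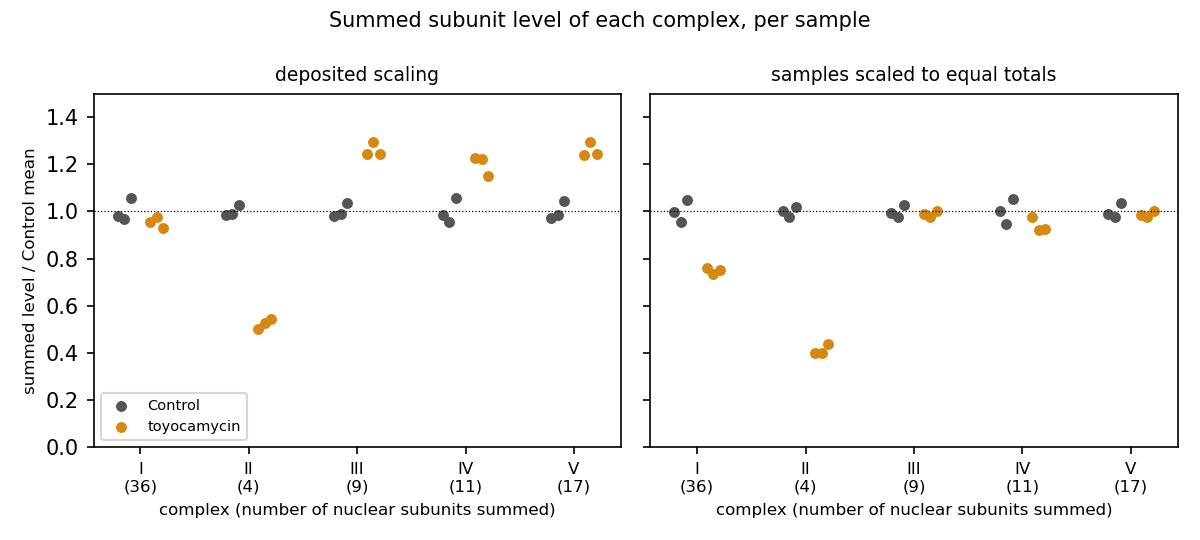
Summed normalised reads of the nuclear subunits of each complex divided by the Control mean (y axis), per sample, with the deposited scaling (left) and with samples scaled to equal totals (right), and the number of subunits summed in parentheses. Complex II lies lowest with toyocamycin in both panels, while complexes III, IV and V lie above Control only in the left panel.

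Set against each other by role, the 76 tested subunits had 29 higher, 19 lower and 28 not passed (median log2 0.14), and the 12 assembly factors of complexes I and II had 4 in each outcome (median -0.38). Assembly factors spread more widely than subunits but not more than all genes. The median size of change without sign was 0.73, against 0.36 for subunits and 0.87 for all genes. The shares called were 66.7%, 63.2% and 65.9%. Counts by role are a description, since genes are not replicates. A list of 46 further assembly factors, with other symbols, had 44 tested genes. Of these 13 rose, 19 fell and 12 did not pass, which is 72.7% called (median -0.21, and 0.81 without sign). Sco2 and Pet117 were listed at 0. The largest falls were in Lyrm7, a complex III factor for the Rieske protein (-3.90), Nubpl, an iron-sulphur factor of complex I (-2.99), and Cmc2, a complex IV factor (-2.60). The largest rises were in Tmem70, a factor of complex V (1.45), and in Cox11 (1.35) and Cox16 (1.30), factors of complex IV. Lyrm7 and Nubpl are low, with 13.21, 0 and 3.643 normalised reads for Lyrm7 and 0, 3.388 and 8.499 for Nubpl with toyocamycin, so the size of their change rests on few reads. Both lost their call without the filter on the mean.

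The mitochondrially encoded partner subunits were mostly higher: 12 of 13 rose, none fell and ATP8 did not pass (median log2 0.69), led by ND3 (1.25), ND6 (1.00) and ND5 (0.97). Over all genes 32.8% rose and 33.1% fell. A higher call held in 5 of the 13 under the deposited scaling, equal totals, TMM factors and quantile normalization alike. Control means ran from 28.66 (ATP8) and 59.68 (ND3) to 343293 (COX1). Whether reads of the low ones were left out in counting was not tested. Equal totals left 6 higher and made 1 lower (median 0.35). Among 12 regulators of mitochondrial biogenesis 6 rose and 2 fell. The largest rises were in Tfb2m, a mitochondrial transcription factor (1.99), Yy1 (1.76) and Nrf1 (1.38), and the falls were in its relative Tfb1m, an rRNA methyltransferase (-1.99), and Esrra (-0.31). The Esrra call was lost under quantile normalization (-0.11), and its sign turned with the length and GC correction (0.11).

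Counting could also move these values where transcripts resemble each other. Among 66 tested genes with at least 90% of their 50-base words in no other annotated gene, 22 rose and 18 fell (60.6% called). Among the 33 with a lower share, 13 rose and 6 fell (57.6% called). Both shares were under the 65.9% of all genes, of which 32.8% rose and 33.1% fell. Of the 6 genes that were not tested, Uqcr11, Cox8c, Cox7b2 and Ndufb11b were listed at 0 throughout, and the copies Ndufa11b and Uqcrh-ps1 had a mean under 1. The 5 tested gene copies did not pass in any case.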

How the data were processed

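RNA sequencing of 6 mouse ILC2 samples, 3 Control and 3 toyocamycin, was analysed from the deposited table. TRIzol was used for extraction and Illumina protocols for libraries, per the labels' protocols. Reads were trimmed with cutadapt 4.7, checked with FastQC and set on mm10, per the submitters' processing notes; aligner, counter, strand setting, multi-mapping rule and annotation were not given in the sources used here. Although FPKM stands in the deposited table's name, the authors' values are a normalised signal of reads: each is a whole number of reads (100.0% in every sample, tolerance 0.01) divided by 1 factor per sample, whatever the gene's length.

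A mean of 1 or more across the samples was required, which left 16223 of 25865 genes. Their log2(value + 1) entered a linear model in limma 3.58.1 under R 4.3.3, fitted with a trend of variance on mean, and two-sided p-values were adjusted by the Benjamini-Hochberg method (threshold 0.05). The pseudocount makes a log2 change understate that of low genes. The recovered reads were also tested in edgeR 4.0.16, which called 4980 genes higher and 5329 lower, and in DESeq2 1.42.0. On simulated data with 13959 genes, 67 were changed 1.5-fold, 67 were changed 2-fold and 66 were changed 4-fold. The limma test recovered 76.1%, 91.0% and 95.5% of these, with 8 false calls. There few genes changed and the size factors were known, unlike in these data, so these rates cannot be carried over to them. Other scalings, filters, pseudocounts, a length and GC correction (15852 genes) and leaving out each library were tried. Counting intervals are exact (Clopper-Pearson, 95%) for reads pooled over the samples of each group. They cover counting error alone and leave out the spread among samples. The reads carry no molecular identifiers, so repeated copies of a molecule are counted as separate reads. Replicates of a group differed beyond counting noise in every pair (chi-square per degree of freedom from 3.96 to 7.76).

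Coordinates, transcript lengths and 50-base words come from GENCODE M21 on mm10, and promoter windows from RefSeq on GRCm38.p6. Symbols were assigned to complexes and roles by hand. Genes were named by a rule: in each complex and role the 2 largest changes in each direction that passed with groups apart, the gene with the highest mean in each complex, the paralog sets, all Ndufaf and Sdhaf genes, and the 3 largest changes in each direction in the other lists. One gene that the rule names is not reported here. Other members of complex II, complex III, the complex I core and F1 were added after their values were seen. The genes and lists were chosen with earlier results of these data known.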

Additional observations from a re-analysis of the deposited data

How the results depend on the processing

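Scaling was the choice that moved most. With equal totals, 17 respiratory chain genes were higher and 44 lower, 12 subunits higher and 35 lower, and 8 assembly factors lower. The subunit median became -0.20 and the assembly factor median -0.73. The summed ratios became 0.748 (complex I), 0.412 (II), 0.990 (III), 0.942 (IV) and 0.987 (V). TMM factors gave 0.925 (I) and 1.22 (III and V) and a subunit median of 0.10. Quantile normalization gave a subunit median of 0.19, an assembly factor median of -0.02 and 2 assembly factors lower. The subunit median was 0.18 with the length and GC correction and 0.08 in edgeR. Leaving out 1 library gave 30 to 38 genes higher and 20 to 24 lower, a subunit median of 0.13 to 0.21, an assembly factor median of -0.46 to -0.18 and a complex I ratio of 0.937 to 0.980. Without the filter on the mean, 27 genes were higher and 18 lower, with 21 subunits higher and 14 lower. The shift with equal totals follows from the larger deposited totals with toyocamycin, and why those totals differ was not tested. The causes of the other shifts were not tested either.

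Of 59 named genes that passed, 947 of 998 values under alternatives kept direction and call, 44 kept the direction only and 7 changed sign. The sign changes were, with equal totals, Cox6a1 (-0.08), Cox8a (-0.03) and Uqcrc1 (-0.15); under quantile normalization, Uqcrc1 (-0.27), Atp5a1 (-0.05) and Uqcrfs1 (-0.0046); and with the length and GC correction, Esrra (0.11). Of 16 that had not passed, 11 changed sign. With equal totals these were Atp5g1 (-0.03), Atp5g3 (-0.35), Cox6b1 (-0.31), Sdhaf2 (-0.18) and Uqcrq (-0.13). Atp5g3 was at -0.04 with TMM factors and in edgeR, -0.21 under quantile normalization, -0.01 with the length and GC correction, and -0.02 to -0.0021 without Control replicate 1 or 2 or toyocamycin replicate 1 or 3 (-0.01). Cox6b1 was at -0.0038 with TMM factors, -0.01 with the length and GC correction, and between -0.03 (without Control replicate 2) and 0.12 as libraries were left out, with -0.0039 without toyocamycin replicate 2. Cox6b2 was at 0.03 with a pseudocount of 8, 0.20 under quantile normalization and in edgeR, 0.25 in DESeq2, 0.07 without Control replicate 2 and, over the libraries left out, -0.43 to 0.68 (without toyocamycin replicate 3). Ndufs7 was at -0.36 with equal totals, 0.08 under quantile normalization, 0.28 with the length and GC correction, 0.01 and 0.02 without toyocamycin replicates 1 and 3 and -0.07 to 0.05 (without Control replicate 3) over all libraries left out. Ndufaf7 was at 0.23 under quantile normalization, and as libraries were left out Cox4i2 was at -0.57 to 0.19 and Ndufa4l2 at -1.25 to 0.06 (both highest without toyocamycin replicate 3) and Cox7a1 at -0.47 to 0.23 (without Control replicate 1).

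With the replicate number as a block, 35 genes were higher and 23 lower. Same-numbered samples deviated with correlations of -0.04, 0.07 and -0.14, and not every sample correlated best with its own number. With 3 samples per group, such weak correlations cannot decide whether same-numbered samples shared a culture or mouse. The values of Sdhd, Cox7a2 and Cox8b rest on few reads, and whether depth or the authors' counting sets those low levels was not tested.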
